A study of Mus musculus with 12 samples.

Results

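Perineuronal nets are dense lattices of extracellular matrix that wrap the cell body and proximal dendrites of certain neurons, above all the fast-spiking interneurons that contain parvalbumin, and related matrix also surrounds nodes of Ranvier and fills the space between other neurons. Their core is a set of chondroitin sulfate proteoglycans called lecticans, which bind the polysaccharide hyaluronan at one end and tenascins at the other, while link proteins lock the lectican to hyaluronan. The nets condense as the brain matures, and the juvenile matrix differs from the adult one in which of these proteins it holds. The genes described here are 10 members of this assembly, namely the lecticans Ncan, Bcan, Vcan and Acan, the link proteins Hapln1, Hapln2 and Hapln4, the tenascins Tnc and Tnr, and the receptor Ptprz1. They were chosen by symbol, and each of the 10 symbols matched 1 row among the 19268 genes of the deposited table. The choice was made by function but with earlier results of these data in view, so the age changes below describe the members and carry no independent support.

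The table came from forebrain RNA of male C57BL/6J mice, and the study states that the olfactory bulb had been left out. Juvenile mice (P25, postnatal day 25) and young adults (P60) were either wild-type (WT) or knock-out (KO), the latter homozygous for a Shank3 allele lacking exons 14 to 16. Shank3 encodes a scaffold protein of excitatory synapses, and the allele is present in all cells of the body. The 4 groups P25-WT, P25-KO, P60-WT and P60-KO held 3 libraries each, 12 in all, each from its own mouse by the study's description, so the p-values measure the spread between mice. WT and KO pups of one mother could share a litter, and which litters were used is not given in the labels.

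Values were normalized counts, that is, read counts estimated per gene and normalized between libraries by the authors, and they summed to between about 30600000 and 32300000 per library. The number of reads behind each library is unknown, so no counting interval is given. Shank3 itself, read over the whole gene, stood in KO at 48.0% of the WT mean at P25 and 50.2% at P60, with every KO library (4535 to 5729) under every WT library (8936 to 11683). Libraries of one group correlated with r between 0.982 and 0.988 across genes. Those of different groups did so with r between 0.972 and 0.989, so the ranges overlapped. P25-WT replicate 2 stood apart for these genes, since it had the lowest of the 6 P25 values for 8 of the 10 members and the highest for Hapln1, and it also had the lowest P25 value for 29.4% of all genes tested. Without it, the members called over both genotypes below were the same and Vcan in addition.

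The members differed widely in level. Per kilobase of the longest annotated transcript, P25 forebrain held a mean of 3235 ± 204 normalized counts of Bcan (SD, n = 6 libraries) and 27.1 ± 2.07 of Acan. Acan and Tnc had the lowest levels per kilobase at P60, at 26.5 ± 2.10 and 24.8 ± 3.18, and their library ranges overlapped. Acan, Tnc, Vcan and Hapln1 took the lowest 4 places at both ages, whether the longest or the median annotated transcript length was used. Among the better expressed genes the order depended on that length: Bcan ranked 1 at P60 with the longest and 3 with the median transcript, and Tnr ranked 5 and 1, so no order among them is given. The study's methods mention a normalization to gene size without giving a formula, so a gene's level per kilobase assumes that its deposited count had not already been divided by length. Aggrecan, the product of Acan, is the lectican most often used to stain the nets, which surround only a small part of forebrain cells.

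**Figure D1:**
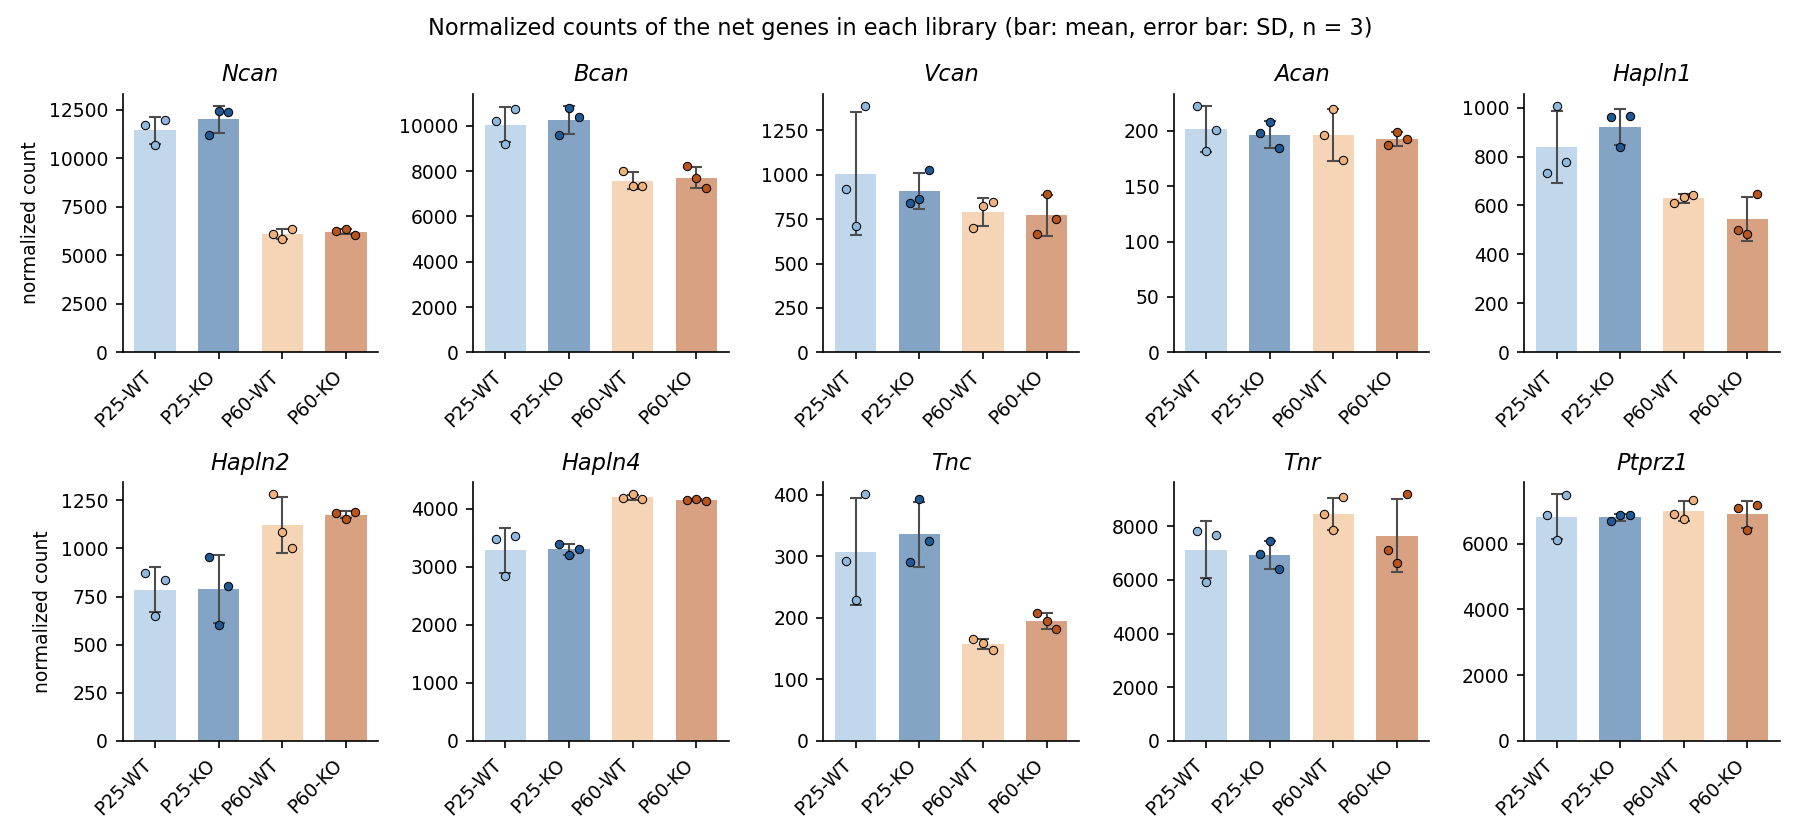
Normalized counts (vertical axes, each starting at 0) of the 10 net genes in the 4 groups, with each of the 3 libraries per group as a point, the group mean as a bar and the SD as an error bar. The 6 P60 libraries of Ncan, between 5832 and 6346, all sat below the 6 P25 libraries, between 10666 and 12454, while Acan had overlapping values in all 4 groups.

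Between P25 and P60 the secreted lecticans Ncan and Bcan, the link protein Hapln1 and the tenascin Tnc fell, the link proteins Hapln2 and Hapln4 rose, and Acan, Vcan, Tnr and Ptprz1 did not pass the test. The comparison set the 6 P60 against the 6 P25 libraries with genotype as a term (limma on log2 of the normalized count plus 1, Benjamini-Hochberg over 17594 genes, threshold 0.05). Of all genes tested, 37.6% passed, 19.3% lower and 18.3% higher at P60, and 6 of the 10 members passed, 4 lower and 2 higher. With all libraries brought to 1 total, the share of higher genes among those that passed went from 48.7% to 59.7%, the same members were called and Tnr was called as well. The same 6 members were also the ones whose P25 and P60 values did not overlap in any library, which 19.6% of all genes tested did. In bulk tissue, fewer cells of a type and less RNA per cell cannot be told apart.

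Neurocan, the product of Ncan, is a soluble lectican abundant in young brain that is cleaved as the brain matures. In replicates 1, 2 and 3 its normalized counts were 11701, 10666 and 11993 in P25-WT and 11202, 12454 and 12368 in P25-KO. They were 6098, 5832 and 6346 in P60-WT and 6259, 6337 and 6065 in P60-KO. Every P60 library lay far below every P25 library, and WT and KO overlapped at both ages. The mean was 47.5% lower at P60, a log2 fold change of -0.93 ± 0.04 (SE), with a limma Benjamini-Hochberg adjusted p of 1.95e-09, and Ncan ranked 11 among all genes tested by p.

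Brevican, the product of Bcan, is the smallest lectican and the main one of adult brain, made by astrocytes, oligodendrocyte lineage cells and some neurons. Its counts in replicates 1 to 3 were 10199, 9217 and 10756 in P25-WT and 9588, 10807 and 10400 in P25-KO. At P60 they were 8016, 7368 and 7349 in WT and 8210, 7699 and 7252 in KO. The ages did not overlap, but the step was smaller than that of Ncan, with the mean 24.7% lower and a log2 fold change of -0.41 ± 0.05 (limma adjusted p = 2.96e-05). At P25 the mean of Ncan, 11731 ± 695, was above that of Bcan, 10161 ± 640, and at P60 the order was the other way round, at 6156 ± 198 for Ncan and 7649 ± 395 for Bcan. These are counts not divided by transcript length, so they compare the ages of a gene and not the 2 genes' molecules.

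The other 2 lecticans did not pass the test. Versican, the product of Vcan, occurs as a form of myelinated tracts and nodes of Ranvier and as forms of immature matrix, and the table sums its isoforms. Vcan was widely scattered within P25-WT, with 921, 713 and 1389 in P25-WT and 839, 863 and 1028 in P25-KO against 702, 825 and 846 in P60-WT and 668, 895 and 754 in P60-KO. The ages overlapped, and the log2 fold change of -0.27 had an interval of -0.55 to 0.01 (95%) and a limma adjusted p of 0.113. Without P25-WT replicate 2 the log2 fold change of Vcan was -0.37 with a limma adjusted p of 0.0180, and without P25-WT replicate 3 it was -0.15 with 0.237. These were the ends of both ranges over its 21 alternatives, and it passed in 1 of them. Acan had values of 181 to 222 at P25 and 173 to 220 at P60. Its log2 fold change of -0.03 had an interval of -0.21 to 0.14, and its sign changed with the scaling of the libraries.

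Link proteins have a common fold that grips both hyaluronan and the end of a lectican. Hapln1, the link protein that nets of interneurons depend on, had counts of 732, 1007 and 778 in P25-WT and 962, 837 and 964 in P25-KO. At P60 it had 610, 635 and 645 in WT and 501, 485 and 647 in KO, so that every P60 library was below every P25 library. The mean was 33.3% lower at P60 (log2 fold change -0.58 ± 0.10, limma adjusted p = 4.63e-04). P25-WT replicate 2, which was lowest for most members, held the highest Hapln1 value of all 12 libraries.

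Hapln2 and Hapln4 went the other way. Hapln2, also called Bral1, is a link protein of nodes of Ranvier made by oligodendrocytes. Its counts were 871, 651 and 833 in P25-WT and 958, 604 and 803 in P25-KO, and they were 1281, 1086 and 1000 in P60-WT and 1182, 1154 and 1189 in P60-KO. The lowest P60 library, at 1000, was just above the highest P25 library, at 958, and replicate 2 was the lowest of both P25 groups. The mean was 46.0% higher at P60 (log2 fold change 0.56 ± 0.10, limma adjusted p = 8.43e-04).

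Hapln4, also called Bral2, is a link protein of nets in many brain regions and partners with brevican around inhibitory synapses. Its counts were 3488, 2845 and 3537 in P25-WT and 3401, 3200 and 3307 in P25-KO. The 6 P60 libraries were tightly grouped, with 4181, 4252 and 4169 in WT and 4153, 4176 and 4134 in KO. All P60 libraries were above all P25 libraries, with the mean 26.7% higher (log2 fold change 0.35 ± 0.05, limma adjusted p = 1.41e-04).

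Tenascins cross-link the free ends of lecticans. Tenascin-C, the product of Tnc, is made by immature astrocytes and other progenitors and belongs to juvenile matrix. Tnc had counts of 293, 228 and 401 in P25-WT and 290, 393 and 324 in P25-KO, and of 166, 159 and 148 in P60-WT and 208, 195 and 182 in P60-KO. The ages did not overlap, the P25 libraries were more scattered than the P60 ones, and the mean was 45.2% lower at P60 (log2 fold change -0.85 ± 0.12, limma adjusted p = 1.15e-04).

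Tenascin-R, the product of Tnr, is the neural tenascin that clusters lecticans in adult nets, and mice without it form poor nets. Tnr had counts of 7819, 5921 and 7667 in P25-WT and 6951, 7463 and 6395 in P25-KO, and of 8458, 7881 and 9080 in P60-WT and 7124, 6618 and 9193 in P60-KO. The 3 P60-WT libraries were above all P25 libraries, whereas 2 of the 3 P60-KO libraries lay within the P25 range. Its log2 fold change of 0.19 had an interval of 0.01 to 0.37 and a limma adjusted p of 0.0894, so it was not called. It passed with all libraries brought to 1 total (0.24, adjusted p = 0.0423) and without P60-KO replicate 2 (0.24, adjusted p = 0.0354), and over its 21 alternatives that p ran from 0.0354 to 0.210. Ptprz1, a membrane phosphatase that itself carries chondroitin sulfate and binds tenascins, had 6115 to 7475 at P25 and 6421 to 7315 at P60. Its log2 fold change of 0.03 had an interval of -0.08 to 0.13.

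**Figure D2:**
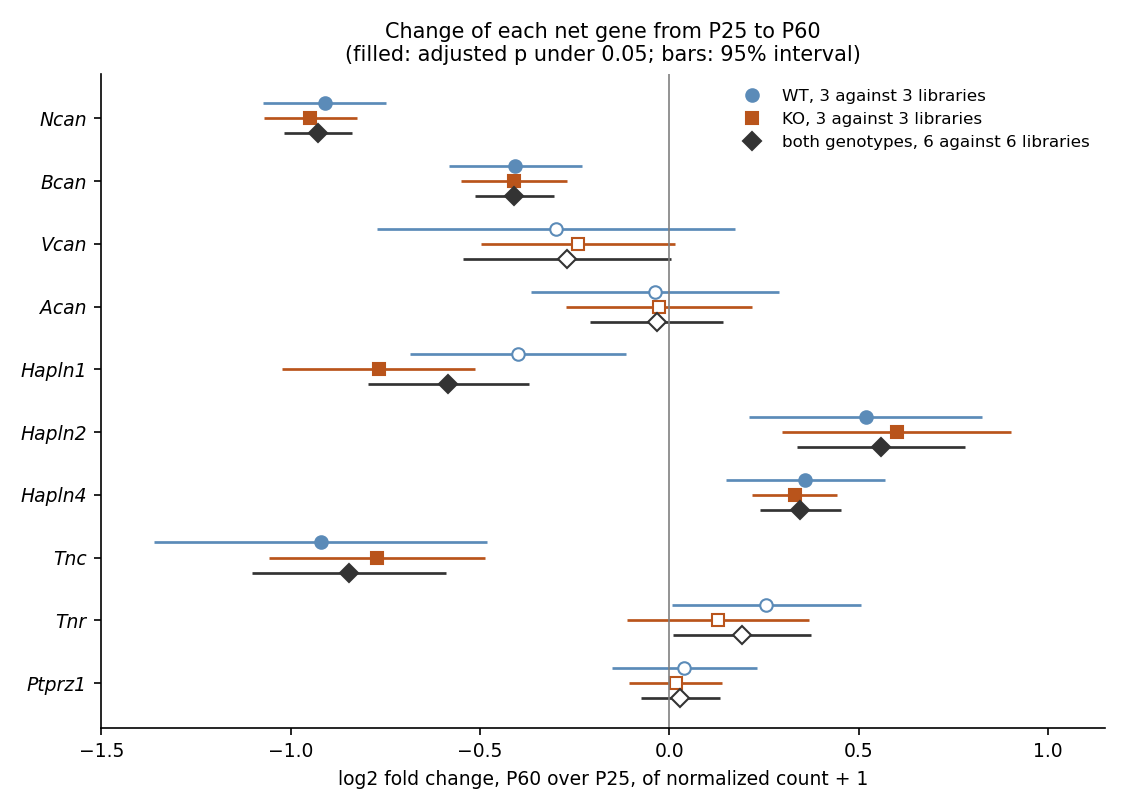
Log2 fold change from P25 to P60 (horizontal axis, normalized count plus 1) of each net gene in WT, in KO and over both genotypes, with 95% intervals and filled symbols where the limma adjusted p was under 0.05. Ncan, Bcan, Hapln1 and Tnc lie left of 0 and Hapln2 and Hapln4 right of it in each of the 3 comparisons, and Hapln1 in WT has an open symbol.

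Each genotype alone gave the same signs for all 10 members. In WT, 5 members passed (Ncan, Bcan and Tnc lower, Hapln2 and Hapln4 higher), where 8.65% of all genes tested did, 4.99% lower and 3.66% higher. In KO 6 members passed, the same 5 and Hapln1, where 20.7% of all genes did, 11.3% lower and 9.37% higher. In WT the log2 fold changes of these were -0.91 ± 0.07 for Ncan, -0.41 ± 0.08 for Bcan, -0.92 ± 0.19 for Tnc, 0.52 ± 0.14 for Hapln2 and 0.36 ± 0.09 for Hapln4. In KO they were -0.95 ± 0.05, -0.41 ± 0.06, -0.77 ± 0.13, 0.60 ± 0.14 and 0.33 ± 0.05. The WT calls other than Ncan were near the threshold: leaving out P25-WT replicate 1 or any 1 of the 3 P60-WT libraries left 1 member called, Ncan, and the signs of the 5 did not change. In KO, Hapln2 did not pass without the intensity trend (limma adjusted p = 0.0770), which left 5 members called.

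Hapln1 was the member whose age change differed most between the genotypes in size. Its mean fell by 40.9% in KO (log2 fold change -0.77 ± 0.11, limma adjusted p = 0.00228), and in WT its log2 fold change was -0.40 ± 0.13 (limma adjusted p = 0.0794). Over its 16 alternatives the limma adjusted p of Hapln1 in WT ran from 0.0436, with the spread estimated over all 12 libraries, the 1 alternative in which it passed, to 0.211. With 1 library left out its log2 fold change in WT ran from -0.49 to -0.26, the smallest step being that without P25-WT replicate 2. The difference of the 2 changes was tested as an interaction term in a limma fit of all 12 libraries and was -0.37 ± 0.18, with an adjusted p of 1 and an interval of -0.76 to 0.02. No gene in the table passed this interaction test (0 of 17594), and 1.64% had an unadjusted p under 0.05, none of them a member. That is less than the share of 0.05 expected when no gene differs, so a missing call does not show equal changes.

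Link protein and lectican genes lie in pairs in the mouse genome, and in 2 of the 3 pairs among the members the link protein gene rose while the lectican gene fell. In the GRCm38 annotation (GENCODE M21), Hapln4 on chromosome 8 (70083457 to 70090862, forward strand) and Ncan (70093085 to 70120873, reverse strand) face each other with their ends 2222 bases apart. Hapln2 on chromosome 3 (88021750 to 88027583, reverse strand) lies 21519 bases from Bcan (87987531 to 88000230, reverse strand). Hapln1 on chromosome 13 (89539796 to 89611652, forward strand) lies 43659 bases from Vcan (89655312 to 89742509, reverse strand), and no protein-coding gene separates any of these 3 pairs. Hapln4 rose while its neighbour Ncan fell, and Hapln2 rose while its neighbour Bcan fell. In the remaining pair Hapln1 fell, and Vcan, which did not pass the test, had a log2 fold change of the same sign (-0.58 and -0.27).

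Ratios taken within a library do not depend on how libraries are scaled. The ratio of Hapln4 to Ncan was 0.287 ± 0.0173 in P25-WT and 0.276 ± 0.0245 in P25-KO (SD, n = 3), and it was 0.691 ± 0.0363 in P60-WT and 0.668 ± 0.0120 in P60-KO, a 2.42-fold higher mean at P60. The ratio of Hapln2 to Bcan was 0.0779 ± 0.00738 in P25-WT and 0.0778 ± 0.0220 in P25-KO, and it was 0.148 ± 0.0119 in P60-WT and 0.153 ± 0.0102 in P60-KO, 1.96-fold higher. In both ratios the 2 ages did not overlap and the 2 genotypes did.

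The ratio of Hapln1 to Vcan overlapped between the ages, with group means of 0.923 in P25-WT, 1.02 in P25-KO, 0.801 in P60-WT and 0.717 in P60-KO, and in P25-WT it ran from 0.561 to 1.41. The juvenile to adult tenascin ratio, Tnc to Tnr, was 0.0429 ± 0.00825 in P25-WT and 0.0485 ± 0.00582 in P25-KO, and 0.0188 ± 0.00208 in P60-WT and 0.0263 ± 0.00551 in P60-KO. Its ages did not overlap, and the mean log2 ratio was 1.04 lower at P60. These ratios were not tested, and they rest on the same counts as the fold changes.

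**Figure D3:**
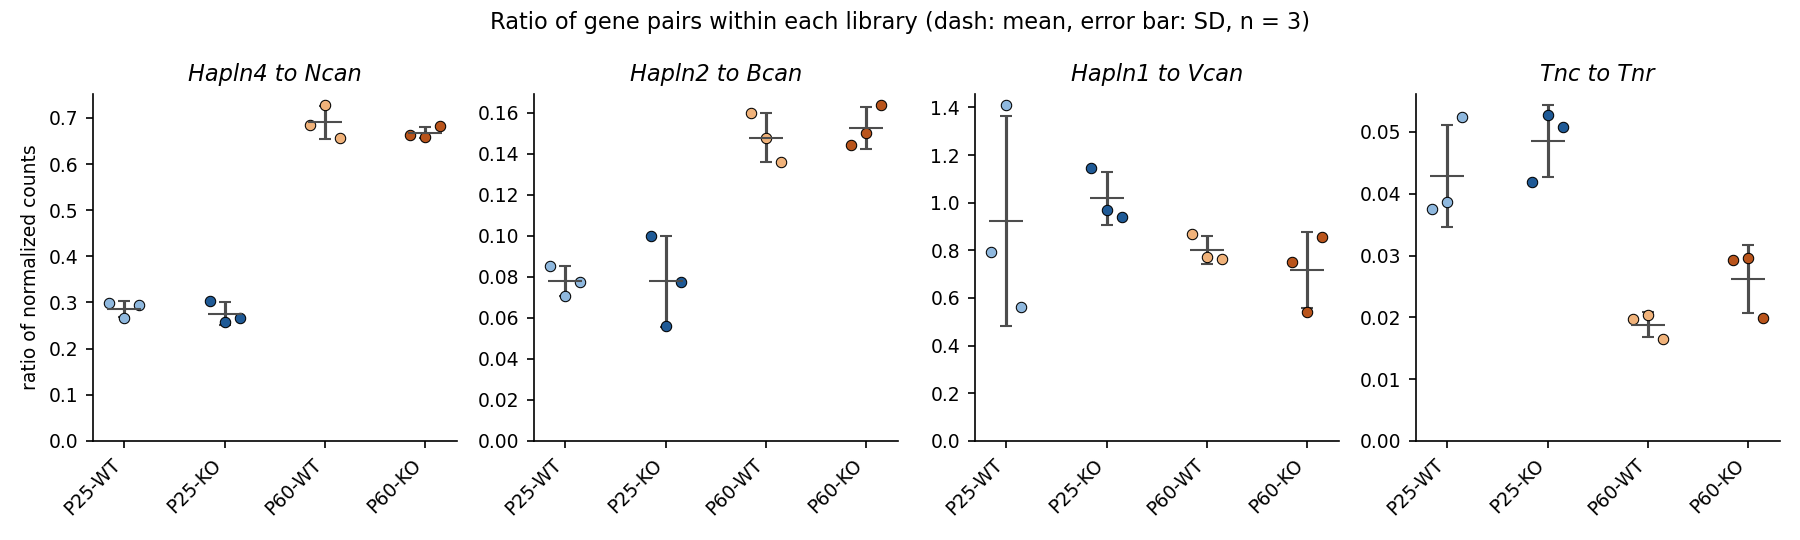
Ratio of normalized counts of 4 gene pairs within each library (vertical axes, each starting at 0), with each of the 3 libraries per group as a point, the mean as a dash and the SD as an error bar. Hapln4 to Ncan and Hapln2 to Bcan are higher in all 6 P60 libraries than in all 6 P25 libraries, Tnc to Tnr is lower, and Hapln1 to Vcan overlaps.

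No member passed the test between genotypes at either age. At P25 the test called 1 of 17515 genes (0.00571%) and at P60 1 of 17610 (0.00568%), in both cases Shank3, and over both ages with age as a term it again called 1 gene (0.00568%). The study's own DESeq2 analysis reported more genes than this at each age, with Shank3 and Ccdc40 at both. The limma test on the deposited values thus called fewer genes than the study did. At an unadjusted p under 0.05, 1.36% of genes passed at P25 with 0 members among them, and 2.5% at P60 with 1 member, Tnc. Both are less than a share of 0.05, which is expected when no gene differs. The absence of a call therefore does not show that the genotypes are alike. The 95% interval of the log2 difference between KO and WT at P60 was -0.11 to 0.08 for Hapln4, -0.08 to 0.14 for Ncan, -0.15 to 0.11 for Ptprz1 and -0.11 to 0.16 for Bcan, the 4 narrowest. For Vcan it ran from -0.58 to 0.38 at P25, where P25-WT was widely scattered, and from -0.30 to 0.22 at P60. Differences within these ranges in Vcan are not excluded.

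Tnc was the only member whose KO and WT libraries did not overlap at an age. At P60 its 3 KO libraries, 182 to 208, were above its 3 WT libraries, 148 to 166, which 4.16% of all genes tested did in that direction. The log2 difference was 0.30 ± 0.12 with an unadjusted p of 0.0280 and an adjusted p of 0.9995 (limma, Benjamini-Hochberg), so it failed the correction. At P25 the genotypes overlapped (0.15 ± 0.20). Over both ages the difference was 0.23 ± 0.12 with an adjusted p of 1.

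Hapln1 had a KO mean at 110% of WT at P25 and at 86.4% at P60, log2 differences of 0.15 ± 0.13 and -0.22 ± 0.11. Its genotypes overlapped at both ages, and neither difference passed the limma test (adjusted p = 1 and 0.9995). With 1 library left out, the log2 difference of Hapln1 ran from 0.05 (without P25-WT replicate 1) to 0.28 (without P25-WT replicate 2) at P25, and from -0.35 (without P60-KO replicate 3) to -0.15 (without P60-KO replicate 2) at P60. The remaining 8 members had KO means between 90.2% of WT (Tnr at P60) and 105% of WT (Ncan at P25).

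**Figure D4:**
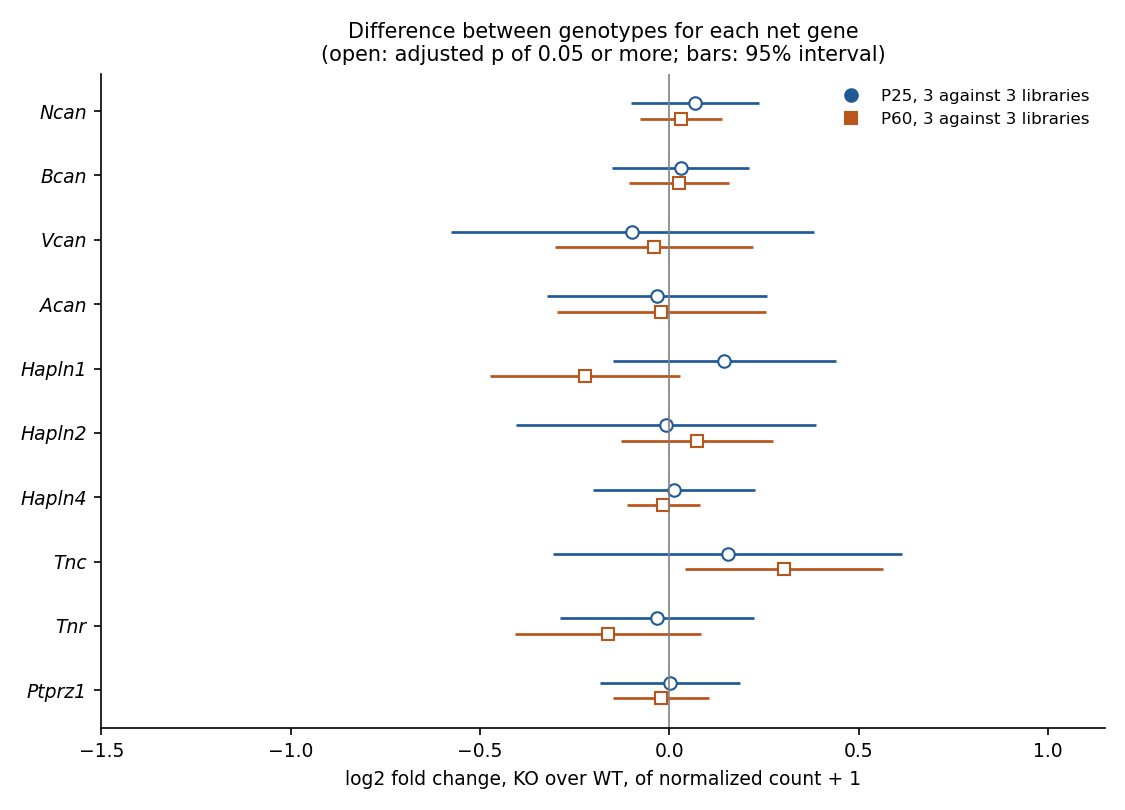
Log2 difference between KO and WT (horizontal axis, normalized count plus 1) of each net gene at P25 and at P60, with 95% intervals and on the same scale as the plot of age changes. Symbols are open because no adjusted p was under 0.05, and of the intervals that of Tnc at P60 (0.04 to 0.57) does not reach 0.

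The genes that make, trim and read the matrix were taken from 6 lists, and their age comparison over both genotypes is given beside the 18.3% higher and 19.3% lower of all genes. All lists had a median log2 fold change below that of all genes tested, which was 0.0037. None of these genes passed the test between genotypes. Of 9 genes that make, bind or degrade hyaluronan, 4 fell and 1 rose (median -0.32). Cemip2, a cell-surface hyaluronidase, went from 725 ± 42.1 at P25 to 534 ± 32.6 at P60, a log2 fold change of -0.44. Hapln3, the link protein gene next to Acan on chromosome 7, went from 54.8 to 31.8 (-0.78), and Cemip, which also degrades hyaluronan, from 888 to 712 (-0.32). Hyal1, a lysosomal hyaluronidase, rose from 143 to 190 (0.41).

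Of 12 genes that build the chondroitin chain, 4 fell and none rose (median -0.04), and the steps were small. B4galt7, which adds a sugar of the linker between core protein and chain, had a log2 fold change of -0.28, and B3gat3, which completes that linker, of -0.20. Chpf, a chain-polymerizing factor, had -0.13, and Xylt2, which starts the chain, had -0.14. Of 9 tested genes that sulfate or epimerize the chain, 4 fell and 2 rose (median -0.10). Chst3, a chondroitin 6-sulfotransferase, whose product is typical of juvenile matrix, went from 259 ± 18.5 to 153 ± 19.5 (-0.76), and Chst12, a 4-sulfotransferase, from 594 ± 34.1 to 440 ± 21.2 (-0.43). Ust, a uronyl 2-sulfotransferase, had -0.24. The epimerase Dse went up from 148 to 181 (0.28). Matrix sulfation itself was not measured.

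Of 13 tested proteases and inhibitors, 5 fell and 1 rose (median -0.20). Adamts4, which cleaves brevican and other lecticans, went from 1940 ± 210 to 1118 ± 50.3, a log2 fold change of -0.79. The membrane protease Mmp15 fell by 0.47 on the log2 scale, Mmp2 by 0.61 and Adamts8 by 0.44. Of 8 other chondroitin sulfate proteoglycans, 4 fell and none rose (median -0.13). Cspg4, or NG2, of oligodendrocyte precursors, fell from 1094 ± 103 to 688 ± 46.0 (-0.67), and neuroglycan C, the product of Cspg5, from 9406 ± 858 to 6643 ± 436 (-0.50). Bgn (-0.39) and Spock2 (-0.23) also fell. Of 12 genes for receptors and bound factors of the nets, 7 fell and 2 rose (median -0.18). Crtac1, an antagonist of the Nogo receptor, had a log2 fold change of -0.37, Lingo1, a co-receptor of that complex, of -0.26, and Ptprf, a receptor phosphatase of the family that binds chondroitin sulfate, of -0.24. Nptx1, a pentraxin that gathers glutamate receptors at synapses, rose from 8775 ± 785 to 11368 ± 738 (0.38).

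Markers of the cells that make the members also moved with age. Each list was scored per library by averaging how far its genes stood, in log2, from their own 12-library means. Of 10 mature oligodendrocyte markers, 9 were lower at P60 (median log2 fold change -1.26), with scores of 0.40 to 0.79 at P25 and -0.69 to -0.43 at P60, while Hapln2, an oligodendrocyte gene, was higher. Mag went from 15862 ± 659 to 6514 ± 525, and Aspa, the marker that did not pass, had 642 ± 101 and 597 ± 77.4. Of 9 oligodendrocyte precursor markers, 8 were lower (median -0.67, scores of 0.26 to 0.42 at P25 and -0.38 to -0.29 at P60), as were Tnc and Bcan.

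Of 10 astrocyte markers, 6 were lower and none higher (median -0.21), a median step smaller than those of Ncan, Tnc and Bcan, with scores of 0.01 to 0.17 at P25 and -0.17 to -0.01 at P60. Of 9 genes listed for fast-spiking interneurons, 5 were higher and none lower (median 0.17), namely Gad1 and Gad2, which make GABA in all inhibitory neurons, the potassium channel gene Kcnc1, Syt2 and Erbb4, and their scores were -0.16 to -0.0019 at P25 and -0.03 to 0.10 at P60. Pvalb itself had 1081 ± 174 at P25 and 1060 ± 76.5 at P60 and did not pass. Of 7 immature neuron markers, 6 were lower and 1 higher (median -0.28). The summed counts of the mature oligodendrocyte list were 401653 to 520389 at P25 and 195804 to 223588 at P60, and no defining marker of these lists was at 0. The part of these cell types in the members' changes was not tested.

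**Figure D5:**
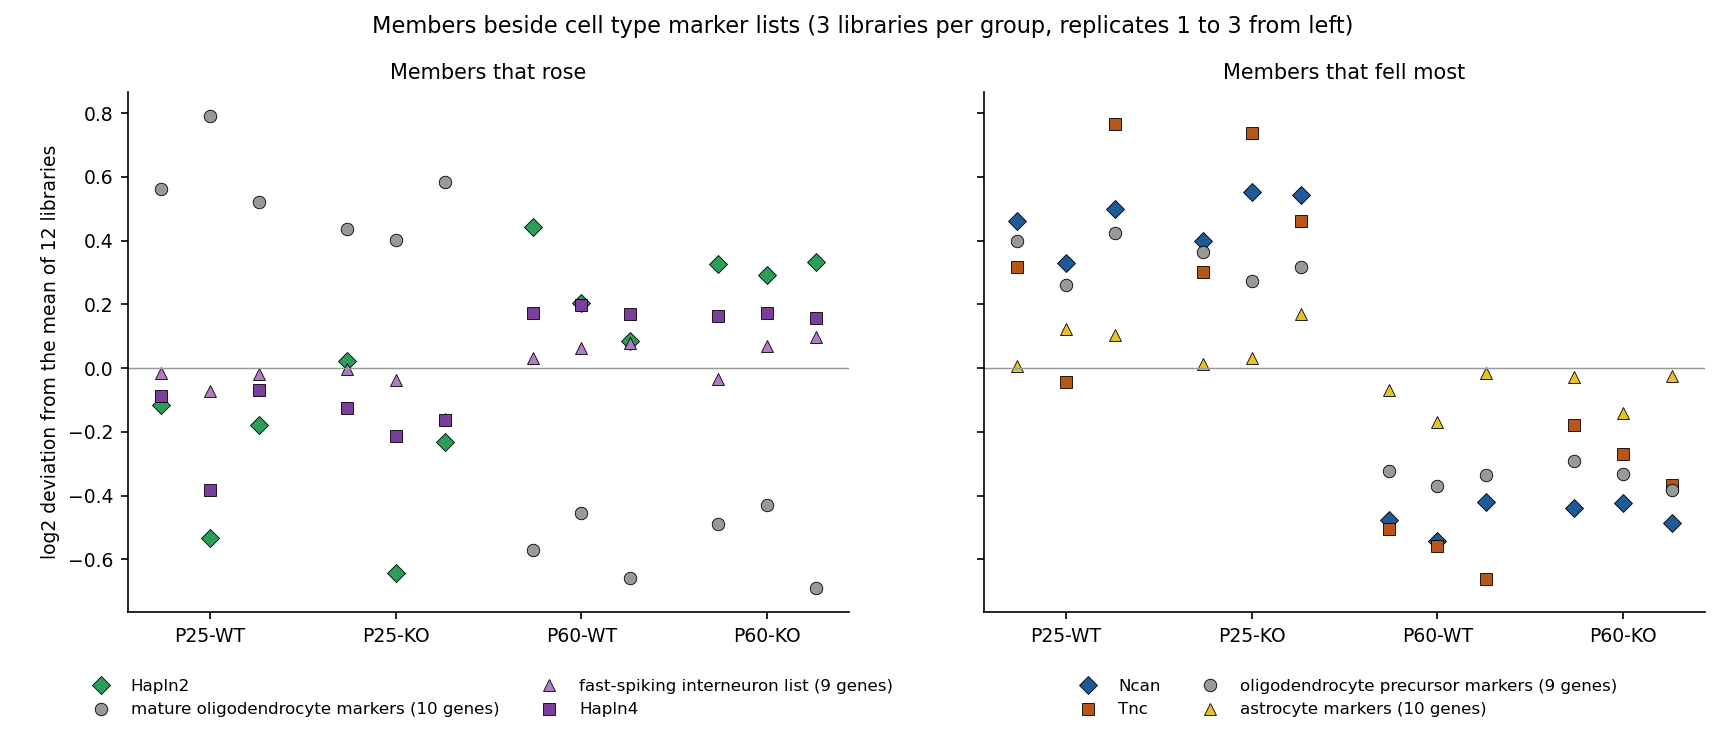
Log2 deviation of each library from the mean of the 12 libraries (vertical axis) for the members that rose, beside the mature oligodendrocyte and fast-spiking interneuron lists (left), and for the members that fell most, beside oligodendrocyte precursor and astrocyte marker lists (right), with 3 libraries per group. Hapln2 is above its mean in all 6 P60 libraries, where the mature oligodendrocyte markers are between -0.69 and -0.43.

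RefSeq windows of the 250 bases before a gene's start (GRCm38.p6) were found for Ncan, Bcan, Vcan, Acan, Hapln1, Hapln2, Tnc, Tnr and Ptprz1, but not for Hapln4. Their GC content ran from 44.8% for Tnc to 74.4% for Acan, against a median of 52.4% over all 32851 windows. Both strands were searched for the letters TATAAA of the TATA box, for the letters CCAAT that give the box of that name, and for the letters GGGCGG of the GC box. The cores ACAAT and, as a variant form, ACAAAG, both bound by SOX factors, were searched as well. Of all windows 12.4% held a TATA box, 33.8% a CCAAT box, 32.7% a GC box, 27.7% the shorter SOX core and 16.5% the longer one, and matches to different motifs were allowed to overlap. Of the 9 members with a window, 6 held a GC box (Ncan, Bcan, Vcan, Acan, Tnc and Ptprz1), 4 a CCAAT box (Bcan, Vcan, Acan and Hapln2), 2 a TATA box (Ncan and Tnc), 3 the shorter SOX core (Hapln1, Hapln2 and Tnc) and 1 the longer one (Tnr). The windows of the 2 members that fell most and the member that rose most are shown 5′ to 3′ on the gene's strand, without bases that the GENCODE model already counts as transcribed (29 for Ncan and 72 for Hapln2), and capitals mark matches to these letters.
Ncan: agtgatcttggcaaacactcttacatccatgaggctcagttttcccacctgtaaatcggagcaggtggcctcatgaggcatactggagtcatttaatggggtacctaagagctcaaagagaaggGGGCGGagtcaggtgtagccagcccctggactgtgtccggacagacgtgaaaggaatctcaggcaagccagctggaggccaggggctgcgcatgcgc
Hapln2: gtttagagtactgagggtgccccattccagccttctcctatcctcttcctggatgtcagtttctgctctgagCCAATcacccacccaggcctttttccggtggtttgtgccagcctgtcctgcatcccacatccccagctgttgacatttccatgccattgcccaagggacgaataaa
Tnc: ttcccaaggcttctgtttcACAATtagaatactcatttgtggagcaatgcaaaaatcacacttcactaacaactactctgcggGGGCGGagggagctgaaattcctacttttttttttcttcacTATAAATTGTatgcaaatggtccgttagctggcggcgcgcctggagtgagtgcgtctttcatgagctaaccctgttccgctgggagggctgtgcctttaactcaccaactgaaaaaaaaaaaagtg
Ncan spans chr8:70120874-70121094, Hapln2 chr3:88027584-88027761 and Tnc chr4:64047016-64047265, all on the reverse strand. In the bases shown, Ncan has a GC box, Hapln2 a CCAAT box, and Tnc a shorter SOX core, a GC box and a TATA box that overlaps another such core in reverse. The TATA box of Ncan and the 3 shorter SOX cores of Hapln2 lie in the bases left out. The window of Hapln1 (chr13:89540386-89540635, not shown) lies wholly within its GENCODE gene, so its SOX core is not upstream of that gene model. These matches are letters only, and no binding was measured.

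Some members share sequence or position with other genes. Of the words of 31 bases in the transcripts of Tnr, 3.36% also occur in other genes, mostly in the antisense Gm38039, and 1.53% of those of Tnc occur in the antisense 8030451A03Rik, neither of which has a row in the table. Vcan overlaps Gm4117, which does have one. For the remaining members the shared words were at most 1.32%. The library kit named in the labels does not mark strand, so reads from a gene and its antisense partner cannot be told apart.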

How the data were processed

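The deposited table holds normalized counts for 19268 genes in 12 forebrain libraries. By the study's methods and the submitters' processing notes, the authors quantified transcripts with Salmon 1.1.0 with GC bias correction against GRCm38, imported them with tximport and applied a normalization of DESeq2, and the methods also speak of a normalization to gene size. Which of these the table carries is not given in the sources used here. These deposited values are a normalized signal on the scale of counts and not whole reads, so no count model was used. The read depth behind a library is unknown, which leaves the spread between libraries as the only measure of precision.

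Values were tested as log2(value + 1) with limma 3.58.1 in R 4.3.3 (eBayes with an intensity trend) for genes with a mean of at least 10 in the libraries compared. P-values were two-sided and adjusted by Benjamini-Hochberg over all genes tested, with a threshold of 0.05. No set test was run. The fitting code was checked on simulated age changes with independent noise per library, for the age comparisons in WT and over both genotypes. The genotype and interaction fits were not simulated. Fold changes of low genes are understated by the pseudocount. Each comparison used the 6 libraries of its groups, apart from the interaction and the 2 additive fits, which used all 12. Groups were taken from the sample titles. Comparisons of KO with WT and of P60 with P25 share libraries. The members, the 6 pathway lists and the 13 marker lists were chosen with earlier results of these data known. The genes named are all members, Shank3, at most 4 genes per pathway list with the smallest adjusted p over both genotypes among those that passed, and the 2 genes most like each member that passed. Markers and Pvalb were named to show their lists, after their values were seen. Of the marker genes and pathway genes, those with a mean under 10 were not tested. Gene models came from GENCODE M21 and promoters from RefSeq. Alternatives changed the pseudocount (10 or 0.1), the filter (none or 100), the scaling, the variance model, the replicate block and the libraries included.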

Additional observations from a re-analysis of the deposited data

How the results depend on the processing

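The 6 members called with age over both genotypes were called, in the same direction, under all 21 alternatives, and all 4 log2 ratios kept their sign in all 14. Over the 1270 values of members under alternatives, 79 changed sign, none of them a called value. Each alternative changed 1 choice.

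The WT age comparison depended most on the settings. Its 1521 calls were 192 without the intensity trend, 3442 in a fit over all 12 libraries and 122 to 2403 with 1 library left out. Its 5 members were 3 with no filter on low values, 1 without the trend, 6 in the fit over all 12 libraries and 1 to 5 with 1 library left out, and its 10 pathway genes were 0 without the trend, 16 in the fit over all 12 libraries and 0 to 16 with 1 library left out. In KO, 3641 calls were 1725 without the trend and 2093 to 3230 with 1 library left out, and without the trend 21 pathway genes were 11 and 6 members were 5. The single call between genotypes (Shank3) was 0 without the trend at both ages and 0 with the replicate block at P25, and ran over 0 to 8 calls at P25 and 1 to 3 at P60 with 1 library left out. The interaction had 0 to 1 calls with 1 library left out. Causes were not tested.

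Signs of values near 0 turned. With libraries scaled to the same total, the age change of Acan was 0.012 in WT, 0.0077 in KO and 0.010 over both genotypes. With 1 library left out, it ran from -0.12 to 0.049 in WT, -0.073 to 0.013 in KO and -0.069 to 0.0069 over both genotypes. That of Ptprz1 ran from -0.036 to 0.11 in WT, -0.013 to 0.067 in KO and -0.0065 to 0.058 over both, and that of Tnr in KO from -0.012 to 0.23. For KO against WT, Tnc at P25 ran from -0.041 to 0.36, Ncan at P60 from -0.00034 to 0.061 and Hapln1 over both ages from -0.10 to 0.016. The interaction ran from -0.087 to 0.013 for Ncan and -0.061 to 0.34 for Tnc.

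The correlation of deviations of same-numbered libraries ran from -0.072 to 0.17 over the pairs of groups. Between P60-KO and P60-WT it was 0.060, 0.17 and 0.13 for replicates 1, 2 and 3. Those of replicates 2 and 3 were above the minimum of 0.1 set for a pairing. In the other pairs of groups it was at most 0.058. Whether same-numbered P60 libraries share a litter or a handling step was not tested. With the replicate block, 1791 genes passed for age in WT, 2482 in KO and 6731 over both genotypes, and 5, 6 and 6 members. Scaling libraries by the median of ratios gave the deposited values back. The share of higher calls went from 42.3% to 59.3% in WT and from 45.3% to 56.5% in KO with the same total.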

Other observations

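For each member that passed the age comparison, the 2 genes outside the list whose profile over the 12 libraries was most like its own were found among 14225 genes with a mean of at least 50, by the root mean square difference of log2 deviations. Those of Ncan were Sema6a (0.087) and Sema4d (0.091), both semaphorins, against a root mean square of 0.47 for the profile of Ncan itself. Their log2 fold changes from P25 to P60 were -0.94 and -1.05. Those of Tnc, AC132307.1 (0.16) and Zfp469 (0.18), were less close against a profile of 0.48. Those of Bcan were Fam57b and Slc27a4, those of Hapln1 were Lgals9 and the metallothionein Mt2, those of Hapln2 were the clock gene Cry1 and Pfkfb3, and those of Hapln4 were Lpin2 and Oxsr1. The likeness is a description of these 12 libraries, which share the age step, and the pairs were not tested.

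Hindbrain markers varied between libraries of one group. Over the 5 tested of 10 listed genes, the score was 2.66 in P60-WT replicate 2 and 1.83 in P60-KO replicate 1, and it lay between -1.29 and 0.58 in the other 10 libraries. The summed level of these genes was 130 to 405 at P25 and 208 to 1228 at P60. With age over both genotypes none of the 5 passed in limma (median log2 fold change 1.35, 2 of 5 with an unadjusted p under 0.05), in WT none of 6 passed (0.45, 0 of 6 with an unadjusted p under 0.05), and in KO 2 of 5, Slc6a5 and En2, were higher (1.71). The 6 members called with age over both genotypes were also called when either P60-WT replicate 2 or P60-KO replicate 1 was left out. A fit without both was not run. Over both genotypes, where 18.3% of all genes tested were higher and 19.3% lower at P60, choroid plexus markers had 3 of 6 genes higher, microglia markers 2 of 7 lower, glutamatergic neuron markers 1 higher and 4 lower of 7, endothelial markers 1 higher and 1 lower of 7, thalamus markers 1 higher and 2 lower of 7, striatum markers 1 of 8 lower, and olfactory bulb markers none of 6 (0 of 6 with an unadjusted limma p under 0.05). Olfactory bulb scores also varied within groups, from -0.56 to 0.51 in P25-WT and -0.41 to 0.34 in P25-KO. They ran from -0.58 to 0.23 in P60-WT and from -0.46 to 0.41 in P60-KO. The part of all these markers in the members' changes was not tested.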
